A study of Danio rerio with 6 samples.

Results

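Oxidative phosphorylation is described here through the genes that code for its machinery, taken as every entry of the count table whose symbol carries the prefix of a subunit of complexes I to V. The rule found 115 genes among 32057 in the table: 13 encoded by mitochondrial DNA and 102 encoded by nuclear DNA. The genes were compared between single whole zebrafish embryos at 30 hours post fertilisation (hpf), 3 of them labelled WT (wild type) and 3 labelled 3etv, which the series title calls Pea3 triple mutants. Pea3 factors are ETS transcription factors that respond to fibroblast growth factor signalling. The labels name neither the 3 mutated genes nor the strain, clutch or mother of any embryo, and poly-A selected libraries were made from the RNA of each embryo by itself. The WT embryos carry the names WLD301, WLD302 and WLD303 and the 3etv embryos MUT301, MUT302 and MUT303, and values are given in that order throughout.

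Complexes I, III and IV pass electrons along the inner mitochondrial membrane and pump protons, complex II feeds electrons in without pumping, and complex V uses the proton gradient to make ATP. Complexes I, III, IV and V each join subunits from both genomes, whereas complex II is built from nuclear genes alone. The mitochondrial genome is inherited from the mother, is transcribed as long precursors that are then cut into single messenger RNAs, and codes for the catalytic core of complex IV and for membrane subunits of the others. The nuclear subunits are each transcribed from their own promoter and imported as proteins.

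The libraries held from 17570505 to 25512862 counts in genes, and every 3etv library was shallower than every WT library. Expression is given as CPM, the counts of a gene scaled to a common library total that is adjusted by TMM factors. As a check of the labels, the Pea3 family genes were looked at first: etv4, etv5a and etv5b were lower in 3etv, with log2 fold changes of -0.48, -1.01 and -1.34 (edgeR adjusted p of 0.00923, 1.82e-05 and 1.27e-06). The other family member measured, etv1, was not called (0.28; edgeR adjusted p = 0.191). The WT embryo WLD302 stood apart from the other wild types within this gene group. It was the highest WT library for 12 of the 13 mitochondrial genes (92.3%, against 36.2% over all tested genes). It was also the lowest WT library for 59 of the 96 nuclear members tested (61.5%, against 34.8% over all tested genes). The WT embryo WLD303 stood apart in another way: it held 177292 counts of the entry ENSDARG00000080337, the most abundant mitochondrial entry that is no protein gene, against 992887 and 1326292 in the other wild types and from 799927 to 887449 in 3etv. When the scaling was computed without any mitochondrial entry, the same 15 members were called as with it.

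Of the 115 genes, 109 passed the filter on low counts, all 13 mitochondrial and 96 nuclear. In edgeR's quasi-likelihood test of 3etv against WT, with Benjamini-Hochberg adjustment over all tested genes and a threshold of 0.05, 15 of the 109 were called (13.8%), where 26.0% of all 19889 tested genes were called. Of the 15, 10 were higher in 3etv and 5 lower; over all tested genes, 12.6% were called higher and 13.5% lower. WT and 3etv embryos were fully separated in CPM for 33 of the 109 (30.3%), 22 with 3etv higher and 11 with 3etv lower, against 42.9% of all tested genes (21.7% higher and 21.2% lower). Among the mitochondrial genes 4 of 13 were called (30.8%), each of them higher. The same share, 4 of 13, was fully separated in CPM, below the 42.9% of all tested genes. Among the nuclear members 11 of 96 were called (11.5%), 6 higher and 5 lower. The median log2 fold change was 0.25 for the 13 mitochondrial genes and 0.03 for the 96 nuclear members, beside -0.0068 for all tested genes. As single embryos were left out, the mitochondrial median ran from 0.17 without MUT303 to 0.40 without WLD302, and the nuclear median from -0.0052 without WLD302 to 0.085 without MUT301.

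**Figure D1:**
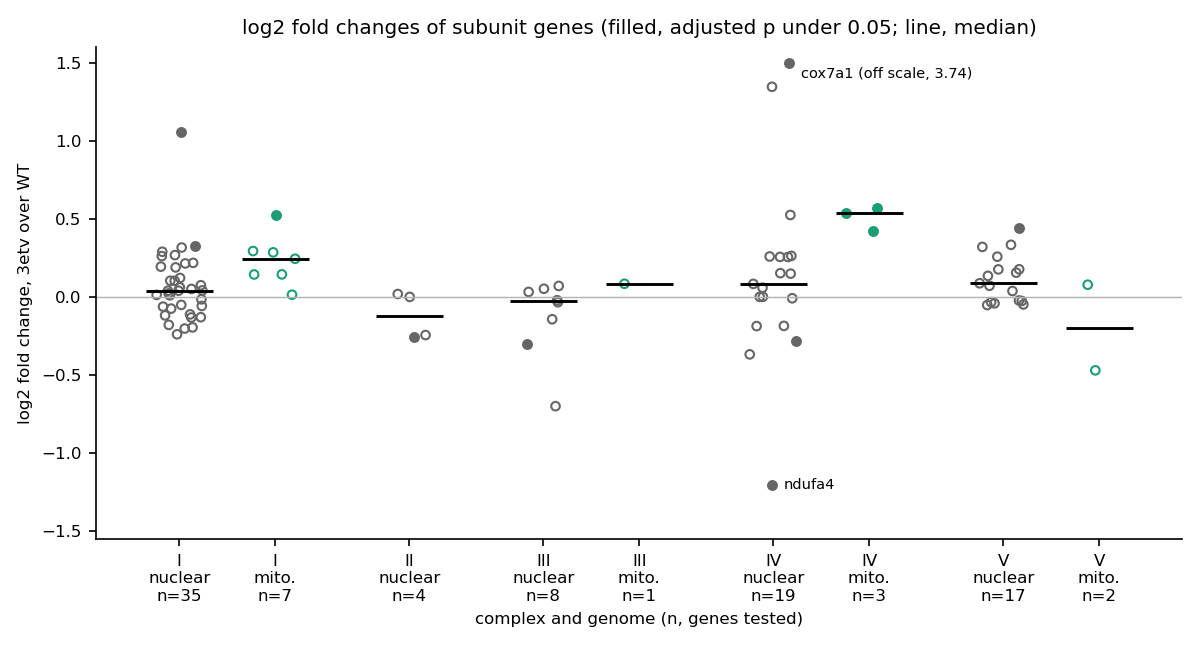
Log2 fold change of 3etv over WT (vertical axis) for each tested subunit gene, by complex and genome, with filled points for genes at an edgeR adjusted p under 0.05 and a line at each median. The 3 mitochondrial genes of complex IV lie between 0.43 and 0.57, most nuclear subunits lie close to 0, and cox7a1 at 3.74 is drawn at the upper edge.

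All 3 mitochondrial genes of complex IV, cytochrome c oxidase, were called higher in 3etv; their products form its catalytic core. The transcript of mt-co1, the subunit that reduces oxygen, was at 11569, 13201 and 12468 CPM in WT embryos WLD301, WLD302 and WLD303, and at 14826, 17225 and 17952 CPM in 3etv embryos MUT301, MUT302 and MUT303. Every 3etv embryo lay above every wild type, and the log2 fold change was 0.43 ± 0.13 (SE, n = 3 embryos per group; edgeR adjusted p = 0.0318). This call was lost when WT embryo WLD301, WT embryo WLD303, 3etv embryo MUT302 or 3etv embryo MUT303 was left out, with edgeR adjusted p-values of 0.0867, 0.0814, 0.110 and 0.102. The labels give no mother or clutch, so a difference of mother or clutch between the embryos cannot be told apart from genotype. This touches each value given here, mitochondrial and nuclear.

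The transcript of mt-co2, the subunit that takes electrons from cytochrome c, was at 3022, 4030 and 3601 CPM in WT and at 4494, 5452 and 5515 CPM in 3etv. The groups did not overlap, and the log2 fold change was 0.54 ± 0.13 (SE; edgeR adjusted p = 0.0117). For mt-co3, the third core subunit, the values were 3851, 4033 and 4131 CPM in WT and 5149, 6133 and 6582 CPM in 3etv. Its lowest 3etv embryo lay well above the highest wild type, with a log2 fold change of 0.57 ± 0.12 (SE; edgeR adjusted p = 0.00481). The calls of mt-co2 and mt-co3 held in each of the 14 alternative fits, with log2 fold changes from 0.43 to 0.64 and from 0.49 to 0.68. Without 3etv embryo MUT302 the mt-co2 call lay just under the threshold, at an edgeR adjusted p of 0.0494, and mt-co3 was at 0.0247.

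Complex I, NADH dehydrogenase, has 7 mitochondrial subunits, which sit in its membrane arm, and 1 of them was called. The transcript of mt-nd3 was at 293, 346 and 336 CPM in WT and at 409, 470 and 525 CPM in 3etv, a log2 fold change of 0.53 ± 0.11 (SE; edgeR adjusted p = 0.00417) with no overlap. It held its call in each of the 14 alternative fits. The other 6 were not called. For mt-nd2 the values were 1965, 2703 and 2013 CPM in WT and 2377, 2787 and 3031 CPM in 3etv, so that WT embryo WLD302 reached into the 3etv range (log2 fold change 0.29 ± 0.14, SE; edgeR adjusted p = 0.139). Without WT embryo WLD302, where 20.1% of all tested genes were called, mt-nd2 and mt-nd4 were called as well, with log2 fold changes of 0.45 and 0.40 (edgeR adjusted p of 0.0206 and 0.0344). The log2 fold change of mt-nd1 was 0.25. Those of mt-nd4l and mt-nd5 were 0.14 and 0.15; they were 0.35 and 0.32 without WLD302 (edgeR adjusted p of 0.0506 for both) and 0.0062 and 0.046 without WLD301. For mt-nd6, which lies on the opposite strand from the rest, the value was 0.02 and its sign changed when WT embryo WLD303, 3etv embryo MUT302 or 3etv embryo MUT303 was left out and with plain library totals as the scaling.

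In complex III the only mitochondrial subunit is cytochrome b. Its transcript mt-cyb was at 3929, 5222 and 4523 CPM in WT and at 4268, 4979 and 5259 CPM in 3etv, and the groups overlapped (log2 fold change 0.09 ± 0.13, SE; edgeR adjusted p = 0.676). In complex V, mt-atp6, which forms part of the proton channel, was at 2625, 3985 and 2724 CPM in WT and at 2915, 3315 and 3630 CPM in 3etv (log2 fold change 0.08 ± 0.16, SE; edgeR adjusted p = 0.749). Both genes overlapped between groups, and both changed sign when WT embryo WLD301 was left out. The sign of mt-atp6 also changed without WT embryo WLD303, where its log2 fold change was -0.010. The short mt-atp8, whose reading frame overlaps that of mt-atp6, was at 50.8, 280 and 87.5 CPM in WT and at 89.1, 109 and 104 CPM in 3etv. WT embryo WLD302 alone set its sign: the log2 fold change was -0.47 with all embryos and 0.54 without that one (edgeR adjusted p of 0.442 and 0.0533).

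**Figure D2:**
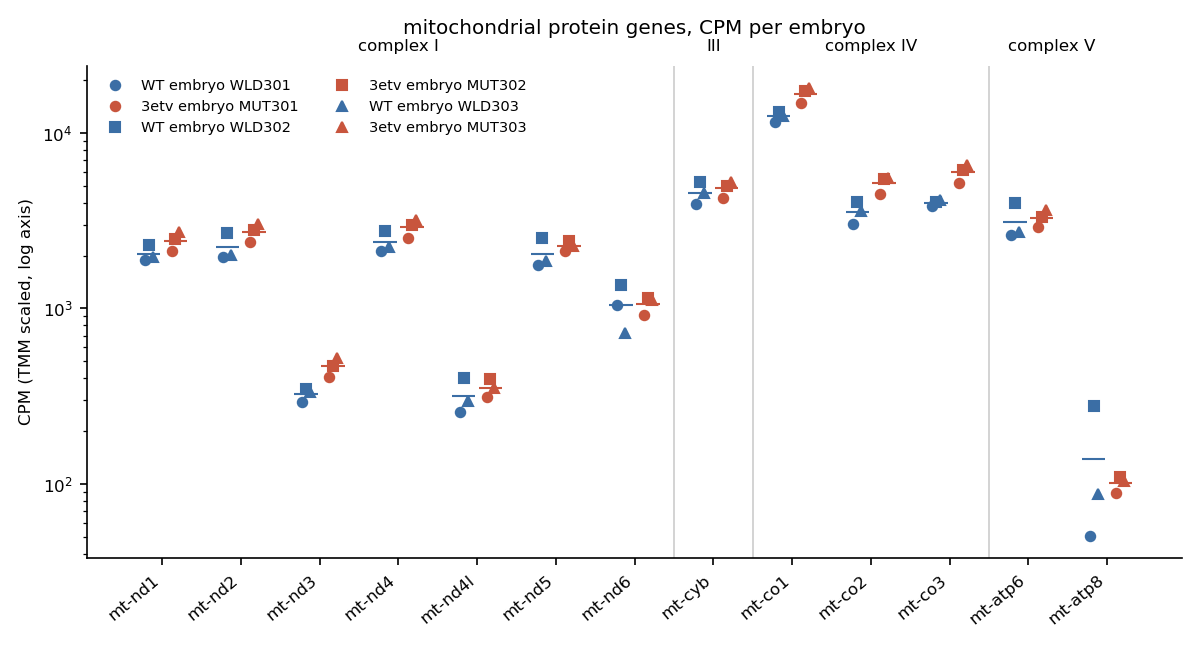
CPM on a log axis for the 13 mitochondrial protein genes in each embryo, with a line at each group mean. The 3etv embryos lie above all wild types for mt-nd3, mt-co1, mt-co2 and mt-co3, and the WT embryo WLD302 is the highest wild type for each gene but mt-co3.

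The makeup of the mitochondrial protein-gene counts also differed, a comparison that the scaling of the libraries does not touch. The libraries were poly-A selected, and how evenly the mitochondrial transcripts were recovered was not measured. As shares of the counts in the 13 mitochondrial genes, mt-co1, mt-co2 and mt-co3 together took 53.6%, 49.3% and 54.6% in WT and 57.6%, 57.8% and 57.5% in 3etv. The share of mt-cyb was 11.4%, 12.1% and 12.2% in WT and between 9.98% and 10.1% in each 3etv embryo. The 3etv embryos were closely alike in these shares and did not overlap with the wild types in either. The count of mt-co2 divided by that of mt-cyb, a pair chosen after the values were seen, was 0.769, 0.772 and 0.796 in WT and 1.05, 1.09 and 1.05 in 3etv. This ratio was as even in WT embryo WLD302 as in the other wild types. Shares of mt-atp6, mt-nd1 and mt-nd5 were lower in every 3etv embryo than in any wild type, and that of mt-nd3 higher. Those of mt-nd2, mt-nd4, mt-nd4l, mt-nd6 and mt-atp8 overlapped. The shares are parts of one total, so higher shares of some genes lower those of the others. In CPM, mt-cyb, mt-atp6, mt-nd1 and mt-nd5 were not lower in 3etv, with log2 fold changes of 0.09, 0.08, 0.25 and 0.15, and were not called. No test was run on these shares or ratios, since they are made from members chosen with results in view.

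**Figure D3:**
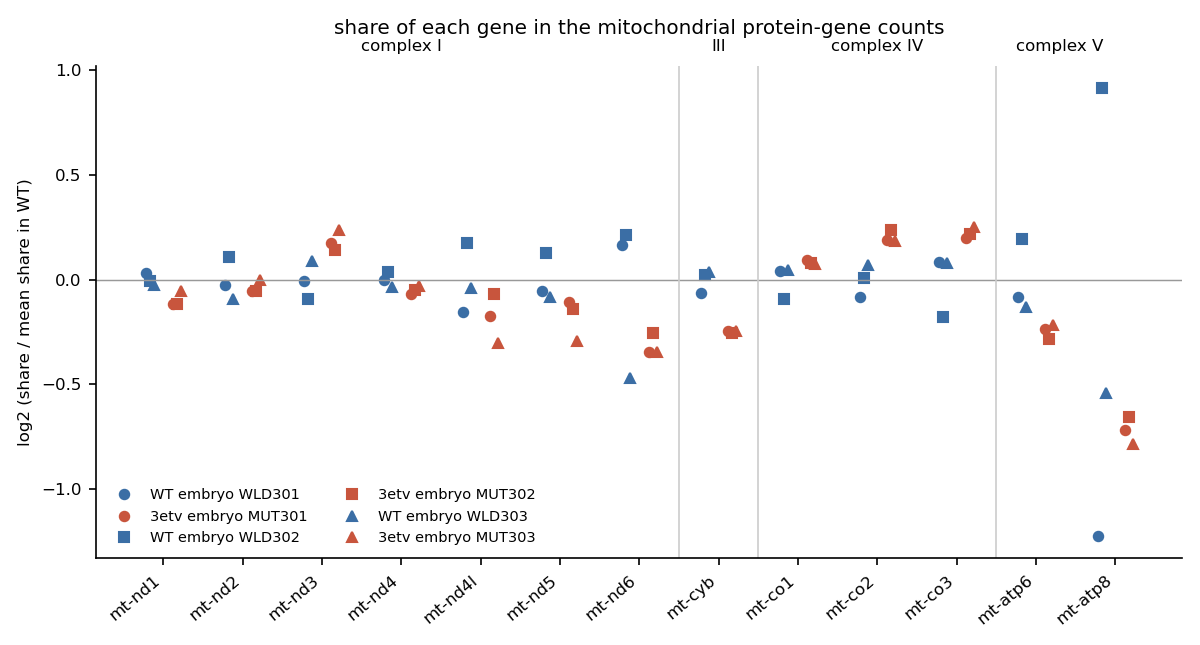
Share of each mitochondrial gene in the summed counts of the 13 genes, as log2 of the share over its mean in WT, per embryo. The 3etv points sit above 0 for mt-nd3 and the 3 complex IV genes and below 0 for mt-cyb and mt-atp6, while mt-atp8 spreads widely among the wild types.

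Summed by complex, the mitochondrial part was higher relative to the nuclear part in 3etv in complex IV. The counts of its 3 mitochondrial genes divided by those of its nuclear subunits were 12.0, 15.8 and 13.8 in WT embryos and 17.6, 19.6 and 18.9 in 3etv, without overlap. On the log2 scale the difference of group means was 0.44, with SDs over 3 embryos of 0.20 in WT and 0.08 in 3etv. In complex I the ratio was 4.98, 7.25 and 5.13 in WT and 6.07, 6.71 and 6.74 in 3etv, and in complex III it was 5.19, 7.67 and 5.83 against 6.29, 7.12 and 7.12. Both overlapped through WT embryo WLD302; the log2 differences of 0.19 and 0.15 became 0.36 and 0.31 without it. The ratio for complex V was 0.767, 1.42 and 0.828 in WT and 0.912, 1.01 and 1.02 in 3etv, a log2 difference of 0.02 that ran from -0.15 to 0.30 as single embryos were left out. These ratios compare groups only, since genes of different length collect different numbers of reads. The nuclear part of complex III lacks the cytochrome c1 gene cyc1, which the symbol rule misses. All mitochondrial protein genes together held 3.47%, 4.35% and 3.92% of gene counts in WT and 4.29%, 4.82% and 4.93% in 3etv. The nuclear members together were at 8233, 7337 and 8057 CPM in WT and 7663, 8000 and 8519 CPM in 3etv, and both sums overlapped between groups.

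**Figure D4:**
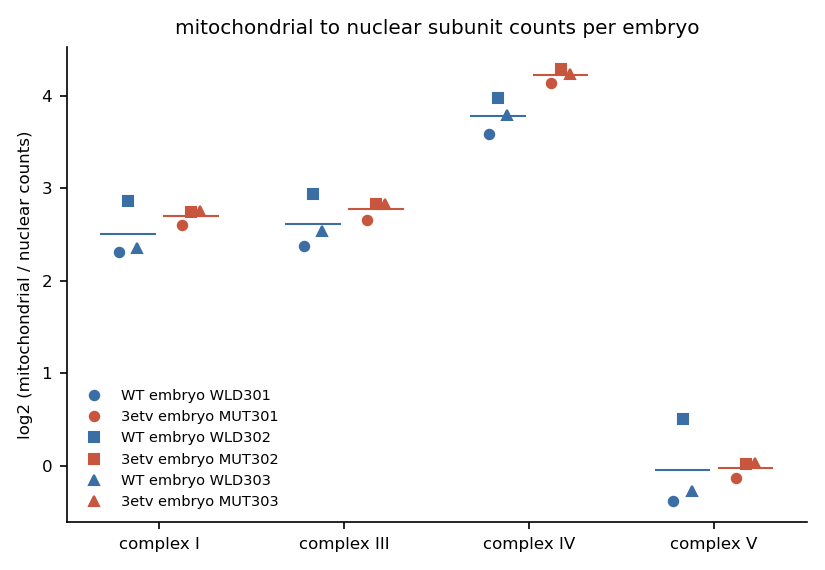
Log2 ratio of summed mitochondrial to summed nuclear subunit counts per embryo for complexes I, III, IV and V, with a line at each group mean. The groups are apart for complex IV (12.0 to 15.8 in WT and 17.6 to 19.6 in 3etv as linear ratios) and overlap for the others, where WT embryo WLD302 is the highest wild type.

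Most nuclear subunits were at similar levels in both groups. In complex I, 2 of 35 tested nuclear subunits were called, both higher (5.71%, beside 26.0% of all tested genes). The log2 fold changes of 32 of the 35 lay within 0.3 of 0, as did those of 10646 of all 19889 tested genes. The transcript of ndufa5, an accessory subunit of the peripheral arm, was at 29.5, 29.4 and 27.7 CPM in WT and 32.6, 38.1 and 37.9 CPM in 3etv, a log2 fold change of 0.33 ± 0.10 (SE; edgeR adjusted p = 0.0262). The scarce ndufa9b had 11, 19 and 25 counts in WT and 38, 23 and 29 in 3etv (log2 fold change 1.06 ± 0.34, SE; edgeR adjusted p = 0.0384), while its paralog ndufa9a was at 66.2 ± 11.5 CPM in WT and 68.6 ± 3.89 CPM in 3etv (SD, n = 3). The flavoprotein gene ndufv1, the complex I nuclear subunit with the highest CPM, was at 119 ± 2.09 CPM in WT and 138 ± 1.78 CPM in 3etv and was not called (edgeR adjusted p = 0.0594), although its groups did not overlap. The ndufa5 call was lost without WT embryo WLD303, 3etv embryo MUT302 or 3etv embryo MUT303, and also with plain library totals. The ndufa9b call was lost without any embryo other than WLD303, with plain library totals, by DESeq2 and with the replicate number as a block (adjusted p of 0.0601, 0.0597 and 0.0588 for the last 3, by edgeR except the second).

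Succinate dehydrogenase, complex II, was lower in sum: its subunits added up to 268, 265 and 287 CPM in WT and 244, 256 and 248 CPM in 3etv, with no overlap. Its flavoprotein sdha was called, at 113, 116 and 126 CPM in WT and 99.5, 102 and 94.8 CPM in 3etv (log2 fold change -0.26 ± 0.08, SE; edgeR adjusted p = 0.0397). The other tested subunits, sdhb, sdhc and sdhdb, were not called, although sdhc did not overlap between groups (36.9 ± 4.72 CPM in WT and 31.1 ± 0.446 CPM in 3etv, SD, n = 3). The levels of sdhb and sdhdb were similar in both groups, with log2 fold changes of 0.02 and 0.0009. In complex III, 1 of the 8 nuclear genes that the symbol rule took in was called (12.5%, beside 26.0% of all tested genes). The rule misses cyc1, the cytochrome c1 gene of this complex, so the complex III values leave it out. Its level was 204 ± 6.76 CPM in WT and 199 ± 6.80 CPM in 3etv (SD, n = 3; edgeR adjusted p = 0.761). The core gene uqcrc1 was at 150, 146 and 164 CPM in WT and 127, 121 and 125 CPM in 3etv, a log2 fold change of -0.30 ± 0.08 (SE; edgeR adjusted p = 0.0198). The calls of sdha and uqcrc1 were lost without WT embryo WLD303 and without any 1 of the 3etv embryos. The sdha call was also lost without the filter on low counts and with the replicate number as a block (edgeR adjusted p of 0.0540 and 0.0671).

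Complex IV held the largest nuclear changes in both directions. The gene ndufa4, named for complex I but known in mammals as a subunit of complex IV, had 787, 1021 and 870 counts in WT and 269, 353 and 276 in 3etv. In CPM this was 36.2, 39.7 and 37.6 against 13.6, 20.8 and 15.1, a log2 fold change of -1.20 ± 0.14 (SE; edgeR adjusted p = 0.000105). Its paralog ndufa4l was at 153 ± 5.74 CPM in WT and 152 ± 6.71 CPM in 3etv (SD, n = 3; edgeR adjusted p = 0.956). The ratio of ndufa4 to ndufa4l counts was 0.227, 0.268 and 0.247 in WT and 0.0938, 0.132 and 0.0968 in 3etv. A further paralog, ndufa4l2a, had between 12 and 26 counts in every embryo and a log2 fold change of 0.26 ± 0.37 (SE; edgeR adjusted p = 0.647). In the RefSeq table of assembly GRCz12tu, 3 called members share a chromosome with a Pea3 gene: ndufa4 with etv4 (332 protein-coding genes between them), uqcrc1 with etv5b (121 between) and cox7a1 with etv1, at a distance between those. Of the 96 members with a position, 11 were called. On the chromosome of etv4 lie 4 members, 1 of them called, and on that of etv5a 6, none of them called. On that of etv5b lie 6 members and on that of etv1 3, with 1 called on each. The share called among all genes of these chromosomes was not computed, so an excess of calls there cannot be judged. The gene etv1 itself was not called (log2 fold change 0.28, edgeR adjusted p = 0.191), and whether it is mutated in 3etv is unknown here. The part of linked alleles in the levels of ndufa4, uqcrc1 and cox7a1 was not tested.

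The gene cox7a1, whose mammalian counterpart is the heart and skeletal muscle form of a small complex IV subunit, had 1, 17 and 2 counts in WT and 82, 67 and 61 in 3etv. Its CPM rose from 0.265 ± 0.344 to 3.81 ± 0.424 (SD, n = 3), a log2 fold change of 3.74 ± 0.51 (SE; edgeR adjusted p = 0.000307). Nearly all WT counts came from WLD302, and without it the log2 fold change was 5.70. Skeletal muscle markers were lower in sum in 3etv (20169 to 24396 CPM, against 25110 to 28931 CPM in WT). Of the 15 tested, 2 were called higher and 6 lower. Summed heart markers overlapped, and the part of either tissue in the cox7a1 level was not tested. The broadly expressed form cox7a2a and the related gene cox7a2l were level between the groups. The former was at 60.4 ± 9.15 CPM in WT and 60.4 ± 8.55 CPM in 3etv, the latter at 46.6 ± 1.58 and 46.7 ± 0.871 CPM (SD, n = 3). The third call was cox8a, a small membrane subunit, at 148, 154 and 148 CPM in WT and 122, 125 and 124 CPM in 3etv (log2 fold change -0.28 ± 0.08, SE; edgeR adjusted p = 0.0214). That call was lost without any 1 of the 3etv embryos. The regulatory subunit cox4i1, highest in CPM among the nuclear genes of this complex, was at 237 ± 7.92 CPM in WT and 251 ± 16.2 CPM in 3etv (SD, n = 3; edgeR adjusted p = 0.506). The gene cox6b1 was low in 3etv embryo MUT301 alone, at 7.93 CPM against 18.9 and 19.4 CPM in the other 3etv embryos and 15.9 to 21.8 CPM in WT, and was not called.

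In complex V, ATP synthase, 1 of 17 nuclear subunits was called (5.88%, beside 26.0% of all tested genes). The gene atp5md, a small subunit of the membrane part, was at 46.2, 42.5 and 44.6 CPM in WT and 56.2, 56.8 and 67.8 CPM in 3etv, a log2 fold change of 0.44 ± 0.10 (SE; edgeR adjusted p = 0.00574). The catalytic beta subunit gene atp5f1b, with the highest CPM of all nuclear members, was at 773, 637 and 786 CPM in WT and 691, 687 and 747 CPM in 3etv, and the groups overlapped (edgeR adjusted p = 0.773). The 6 nuclear members closest to the threshold without passing it, atp5f1e, ndufb2, atp5mc3b, ndufv1, atp5meb and ndufa7, each had a positive log2 fold change, from 0.22 to 0.33. How many to list was set after the values were seen. Of these, atp5f1e and atp5mc3b were called in some alternative fits, such as DESeq2 and limma. With plain library totals none of them was called, while ndufb7 and ndufv2 were, with main-fit log2 fold changes of -0.18 and -0.19.

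The symbol rule also took in 11 assembly factors, proteins that help build complexes I and II without staying in them, and 2 genes for inhibitors of ATP synthase. Of the 11 assembly factors 2 were called (18.2%, beside 26.0% of all tested genes), both higher in 3etv. The complex I assembly factor ndufaf3 was at 30.1, 25.3 and 30.7 CPM in WT and 40.5, 42.2 and 58.4 CPM in 3etv, a log2 fold change of 0.71 ± 0.14 (SE; edgeR adjusted p = 0.00273). For ndufaf6 the values were 5.61, 4.20 and 5.71 CPM in WT and 7.67, 7.19 and 7.31 CPM in 3etv (log2 fold change 0.52 ± 0.17, SE; edgeR adjusted p = 0.0390). The inhibitor gene atp5if1b was lower, at 53.6, 67.4 and 52.2 CPM in WT and 44.0, 46.3 and 47.3 CPM in 3etv (log2 fold change -0.33 ± 0.11, SE; edgeR adjusted p = 0.0359). The atp5if1b call was lost without WT embryo WLD302, and without any 1 of the 3etv embryos. The ndufaf6 call was lost in each of the 6 fits that left out an embryo except the one without WT embryo WLD301, and also with plain library totals and with the replicate number as a block.

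**Figure D5:**
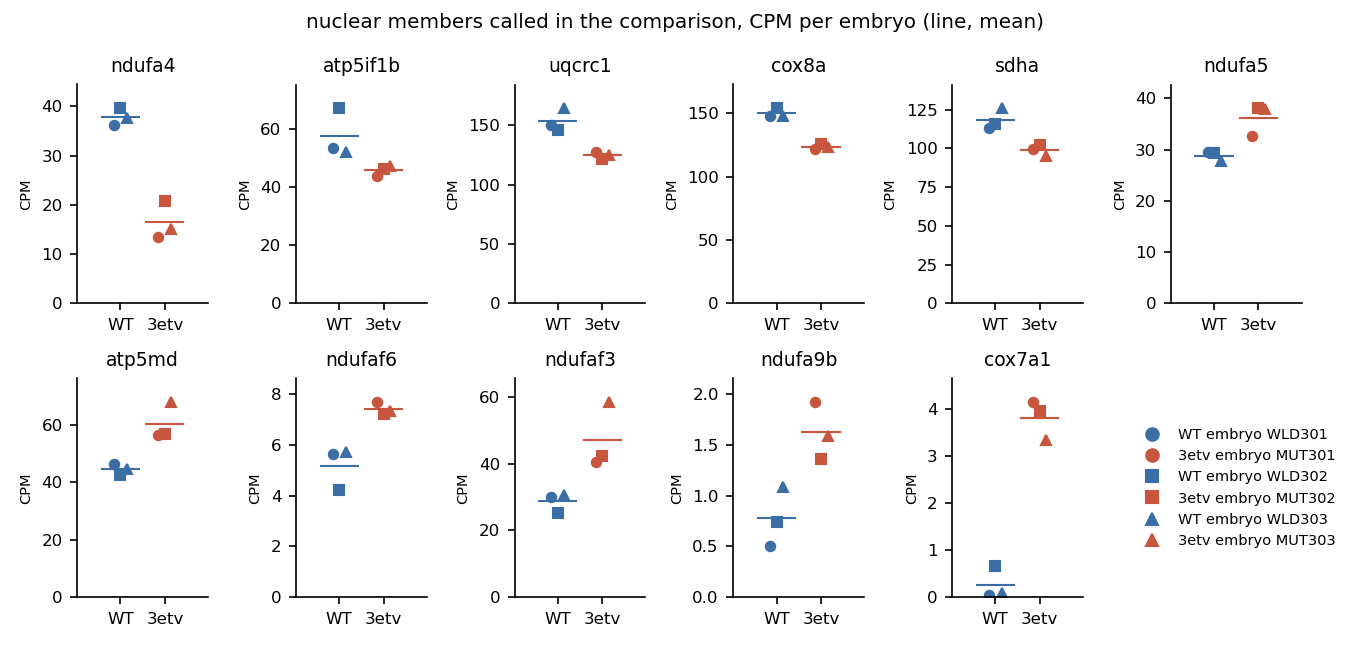
CPM per embryo for the 11 nuclear members called in the comparison, ordered by log2 fold change, each axis starting at 0, with a line at each group mean. The widest gaps between groups are those of ndufa4 (13.6 to 20.8 CPM in 3etv against 36.2 to 39.7 in WT) and cox7a1, while the groups of uqcrc1, cox8a and sdha lie closer together.

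The calls were repeated under 14 alternative fits. The share of all tested genes called was 26.1% with DESeq2 size factors, 25.3% with plain library totals, 20.9% without a filter on low counts, 28.1% with a mean of at least 50 counts, 24.5% by DESeq2 and 26.0% by limma. It was 23.7% with the replicate number as a block. It was 24.0%, 20.1% and 17.3% without WLD301, WLD302 and WLD303, and 21.9%, 18.4% and 17.1% without MUT301, MUT302 and MUT303. Of the 11 nuclear calls, ndufa4, cox7a1, ndufaf3 and atp5md held in each alternative fit that could test them. The count of nuclear members called lower fell from 5 to 1 without any 1 of the 3etv embryos and to 3 without WT embryo WLD303. The count called higher fell from 6 to 3 without 3etv embryo MUT302 or MUT303 and with plain library totals as the scaling. The 6 nuclear members left out by the filter were ndufs1, ndufs8b, sdhda, cox4i1l, cox6a2 and ndufa4l2b, with at most 15 counts in any library. The entry of uqcrb, a complex III subunit, held only 10 to 31 counts per library. Paralogs such as the atp5mc genes, which encode the same mature ring subunit, may share reads, so their separate counts are uncertain.

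Other genes of the pathway were counted from lists chosen with earlier results of these data known. Their counts stand beside the 26.0% of all tested genes that were called. Of 40 tested assembly factors outside the symbol rule, 4 were called higher and 2 lower. Among them taco1, a translational activator of the mt-co1 message in humans, was at 3.30 ± 0.557 CPM in WT and 15.7 ± 1.91 CPM in 3etv (SD, n = 3). Its groups lay far apart, with a log2 fold change of 2.25 ± 0.17 (SE; edgeR adjusted p = 3.10e-06). The complex IV assembly factor surf1 was higher (log2 fold change 0.37 ± 0.12, SE; edgeR adjusted p = 0.0392), and the membrane insertase oxa1l was lower (-0.52 ± 0.10, SE; edgeR adjusted p = 0.00226).

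Of 26 genes for mitochondrial DNA upkeep, transcription and RNA processing, 4 were called (15.4%), each lower. This share is near the 13.5% of all tested genes that were called lower. The gene trmt10c, a subunit of the mitochondrial ribonuclease P that cuts transfer RNAs out of the precursors in humans, had 325, 424 and 381 counts in WT and 144, 141 and 155 in 3etv. In CPM this was 16.0 ± 0.882 in WT and 8.01 ± 0.647 in 3etv (SD, n = 3; edgeR adjusted p = 0.000212), with no overlap. The messenger RNA binding protein gene lrpprc was at 104 ± 12.0 CPM in WT and 84.0 ± 8.25 CPM in 3etv (SD, n = 3; edgeR adjusted p = 0.0488). The transcription genes tfam and polrmt were not called (log2 fold changes of -0.16 and -0.15). Of 74 mitochondrial ribosomal protein genes, 1 was called higher and 8 lower, a share of 12.2%.

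Among 20 tested nuclear regulators of these genes, 4 were called higher and 4 lower. All genes of the PGC-1 coactivator family were in the lower group: ppargc1a at 7.88 ± 1.16 CPM in WT and 4.93 ± 0.381 CPM in 3etv, pprc1 at 71.4 ± 3.74 and 45.0 ± 5.51 CPM, and ppargc1b at 59.6 ± 8.45 and 45.9 ± 3.66 CPM (SD, n = 3). Their log2 fold changes were -0.68, -0.67 and -0.38 (edgeR adjusted p of 0.0115, 0.000632 and 0.0265). The regulator nrf1, 1 of the 4 called higher, was slightly higher (log2 fold change 0.26 ± 0.09, SE; edgeR adjusted p = 0.0494). The ETS factor gene gabpa was not called (0.12 ± 0.09, SE; edgeR adjusted p = 0.352).

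Of 23 citric acid cycle and pyruvate dehydrogenase genes, 1 was called higher and 6 lower; the list median was -0.16. The lower genes included sucla2, a subunit of succinyl-CoA synthetase, at 182 ± 6.55 CPM in WT and 132 ± 4.97 CPM in 3etv (SD, n = 3; edgeR adjusted p = 0.00173), while citrate synthase, cs, was not called. Of 24 electron carrier and quinone-linked genes 4 were called higher (coq4, coq6, coq8ab and coq9) and 3 lower (coq7, pdss1 and pdss2), a share of 29.2%. The cytochrome c gene cycsb and the cytochrome c1 gene cyc1 were not called. Of 28 carriers, pores and import genes 1 was higher and 5 lower, among them vdac3 and tomm70a (log2 fold changes of -0.34 and -0.49). That list also holds the members atp5if1a and atp5if1b, and atp5if1b, already given above, is 1 of the 5 lower.

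Summed markers of some tissues in the whole embryo also differed between the groups. The calls among them stand beside the 26.0% of all tested genes that were called. The summed level of 15 entries for skeletal muscle markers ran from 25110 to 28931 CPM in WT and from 20169 to 24396 CPM in 3etv, with 2 called higher and 6 lower. The 6 neuron markers summed to 1044 to 1166 CPM in WT and 1276 to 1448 CPM in 3etv, with 4 called higher, and the 5 yolk syncytial layer markers to 1113 to 1656 CPM and 708 to 990 CPM, with 1 higher and 4 lower. The 9 heart markers summed to 65.6 to 80.5 CPM in WT and 53.9 to 66.4 CPM in 3etv, 1 of them called lower. The 5 notochord markers summed to 1673 to 2023 CPM in WT and 1415 to 1633 CPM in 3etv, the 4 ionocyte markers to 25.2 to 30.6 and 20.3 to 22.9 CPM. Of those tested, 1 of 4 notochord markers and 2 of 4 ionocyte markers were called, each lower. Sums of the 8 red blood cell markers (505 to 667 and 656 to 817 CPM) and the 7 epidermis markers (13140 to 14547 and 12950 to 13952 CPM) overlapped. Among the red blood cell markers 2 were called higher, and among the epidermis markers 1 was called higher and 2 lower. No marker entry was at 0 in all libraries. The part of these differences in the oxidative phosphorylation values was not tested, and in whole embryos fewer cells of a type and less RNA per cell cannot be told apart.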

How the data were processed

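Single-embryo poly-A RNA libraries, 3 WT and 3 3etv, were analysed from the deposited table of raw counts per Ensembl gene. STAR, HTSeq and the GRCz11 build are named in the submitters' processing notes; versions, annotation release, strand setting and the treatment of reads with several alignments are not given in the sources used here. Counts of mt-nd6, of overlapping mitochondrial genes and of near-identical copies are therefore uncertain. The table's header lacks a tab between MUT302 and MUT303; columns were matched to samples by name after splitting there. Its 5 closing summary lines were left out of library sizes and tests.

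In R 4.3.3, genes were kept by filterByExpr and compared on genotype with edgeR 4.0.16 (TMM factors, quasi-likelihood test, Benjamini-Hochberg adjustment over 19889 genes). SE is the log2 fold change over the square root of F. Alternatives used limma 3.58.1 and DESeq2 1.42.0, other scalings and filters, the replicate number as a block, and each embryo left out. A floor of 3 counts is 0.117 to 0.177 CPM, for counting error only. Within groups, no libraries agreed within sampling noise (chi-square per degree of freedom from 6.75 to 54.1). Whether embryos came from separate clutches is not stated, so p-values measure spread between embryos.

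Members and lists were chosen with earlier results of these data known. Named by rule were all mitochondrial members, called nuclear members, the nuclear subunit with the highest CPM in each complex, and paralogs of opposite sign with at least 1 called; other genes were named after their values were seen. Sequences and promoter motifs were not analysed here.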

Additional observations from a re-analysis of the deposited data

How the results depend on the processing

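For the 28 genes named by rule, 337 of 389 alternative values kept direction and side of the threshold. A gene not called in the main fit counted as kept when it stayed uncalled with the same sign. Of the other values, 41 lost the call, all of them in the 15 called members. Another 2 gained the call and 9 changed sign, all in genes not called. In every alternative run 13 genes kept both, some of them uncalled throughout. The called ones among them were mt-co2, mt-co3, mt-nd3, ndufa4, cox7a1, ndufaf3 and atp5md. With plain library totals as the scaling, 3 nuclear members were called higher and 7 lower, the median log2 fold change of all 96 was -0.050, and mt-nd6 was at -0.057; the median over all genes moved to -0.08. As single embryos were left out, nuclear members called higher ran from 3 to 9 and lower from 1 to 5, mitochondrial members called higher from 3 to 6, and the log2 fold change from -0.87 to 0.54 for mt-atp8, -0.032 to 0.29 for mt-atp6, -0.014 to 0.19 for mt-cyb, -0.19 to 0.25 for mt-nd6 and -0.14 to 0.0051 for atp5f1b. The mitochondrial share of gene counts was 0.767 percentage points higher in 3etv. Over all reads of the table, a larger denominator that includes reads in no gene, the difference was 0.290 points, so these differences are not on one scale. On average 22944775 of 58365653 reads of the table were counted in genes in WT, and 18860375 of 48293028 in 3etv. The complex IV log2 ratio difference of 0.44 became 0.25 with mean log2 CPM, which weighs scarce subunits such as cox7a1 like abundant ones. The cause of the shifts with the scaling and with left-out embryos was not tested. Same-numbered embryos showed no pairing (correlations of deviations -0.07, 0.09 and -0.11); with the replicate number as a block, 11 members were called, all among the 15, and mt-co1 was at an edgeR adjusted p of 0.0807. Depth limits ndufa9b, cox7a1 and other members with few counts.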

Other observations

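The 24 mitochondrial entries that are no protein genes carry no gene name in the table. Of the 15 that passed the filter, 7 were called higher in 3etv and 1 lower by edgeR (53.3%, beside 26.0% of all tested genes). The summed level of the listed entries overlapped between groups, at 46887, 52796 and 8766 CPM in WT, where WLD303 was far below the others, and 41675 to 50146 CPM in 3etv. The entry ENSDARG00000081369 was at 939 ± 57.2 CPM in WT and 1338 ± 181 CPM in 3etv (SD, n = 3; log2 fold change 0.51, edgeR adjusted p = 0.00626). The entry ENSDARG00000082753 had 3165, 7087 and 2431 counts in WT and 1426, 1729 and 2049 in 3etv (log2 fold change -0.88, edgeR adjusted p = 0.0295), highest in WT embryo WLD302, as mt-atp8 was.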
